A study of Homo sapiens with 9 samples.

Results

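The transcripts described here are those of 10 genes of the mRNA export pathway: the adaptors ALYREF, CHTOP, SARNP, POLDIP3, ZC3H11A and FYTTD1, the helicases DDX39A and DDX39B, and the receptor pair NXF1 and NXT1. They were taken by name, as a list chosen with earlier results of these data known, and the rule itself uses no measured value. All 10 were measured and all 10 passed the filter on low counts, among 16181 genes tested of 56349 matched. The annotation matched 105 of their transcripts in the files, of which 51 passed the same filter.

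An mRNA leaves the nucleus after TREX, a complex of the THO subunits with a helicase and adaptor proteins, has been placed on it during transcription and splicing. DDX39B (UAP56) and its paralogue DDX39A (URH49) are the RNA helicases that load adaptors such as ALYREF, and the adaptors hand the mRNA to the NXF1 and NXT1 heterodimer, which carries it through the nuclear pore. NXF1 is also known for keeping one of its own introns in a share of its transcripts, and that intron holds a constitutive transport element to which NXF1 protein binds.

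HEK293 cells, a human embryonic kidney line that the methods call 293 T, received either a control siRNA or a mix that targets WTAP as well as KIAA1429 (VIRMA), both subunits of the m6A methyltransferase complex. Nuclear and cytoplasmic RNA was then sequenced from polyadenylated transcripts. The 9 samples were 1 control cytoplasm (replicate 2), 2 RNAi cytoplasm (replicates 1 and 2), 3 control nucleus and 3 RNAi nucleus, so the control cytoplasm has no replicates. Nothing in the labels says that replicates were separate cultures, and p-values measure the spread between these samples only.

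Estimated counts summed to between 11627403 and 19036141 per sample. Both siRNA targets were lower after RNAi in both fractions. Nuclear WTAP fell to 56.2% of control and cytoplasmic WTAP to 30.3%, and VIRMA to 47.2% and 23.8%, with adjusted p between 0.00079 and 0.0314 (edgeR quasi-likelihood test). Summed levels of the nuclear RNAs MALAT1, NEAT1, KCNQ1OT1, MEG3 and SNHG14 were 34.6 CPM (counts scaled to a common library size) in the control cytoplasm and 16.3 to 18.7 CPM in the RNAi cytoplasm, against 288 to 336 CPM in the control nucleus and 392 to 458 CPM in the RNAi nucleus. They thus differed between the siRNAs in both fractions without overlap, in the direction of a higher nuclear/cytoplasmic ratio after RNAi, and their part in the comparisons of RNAi with control below was not tested. Summed levels of 7 mitochondrial mRNAs were 96800 to 148000 CPM in cytoplasmic and 138000 to 225000 CPM in nuclear samples, so they were not lower in the nuclear fraction. The neuron-like and kidney genes NEFM, INA and PAX2 were present in every sample, while ALB, DCN, COL1A2, PTPRC and HBB, markers of other cell types, stayed below 1 CPM. NEFL and LHX1 were not analysed here.

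Levels were first compared between the 10 genes per transcript length, as TPM (counts divided by effective length and scaled to a common total) summed per gene. By this measure NXF1 was highest in every group. Its mean was 98.2 TPM in the control cytoplasm and 93.7 ± 13.4 (SD, n = 2) in the RNAi cytoplasm. In the nucleus it was 228 ± 103 (n = 3) with control siRNA and 237 ± 25.0 (n = 3) after RNAi. Much of this TPM lay on short isoforms, 27.7% on NXF1-206 (619 bases), 22.1% on NXF1-212 (390 bases) and 18.5% on NXF1-214 (922 bases). By CPM, CHTOP (154) was above NXF1 (136) in the control cytoplasm. In the control nucleus DDX39B (mean 304 CPM) was above NXF1 (235 CPM). FYTTD1, which encodes the adaptor UIF, was lowest in every group, at 6.68 TPM in the control cytoplasm and 2.89 ± 0.699 TPM in the control nucleus. NXT1, the small partner of NXF1, was at 28.5 TPM in the control cytoplasm and 26.3 ± 6.57 TPM in the control nucleus, below NXF1 in each sample group. In the control nucleus the order was NXF1, DDX39B, CHTOP, DDX39A, ALYREF, POLDIP3, NXT1, ZC3H11A, SARNP and FYTTD1. Neighbours in that order lay within their spread in several places, such as DDX39A at 80.3 ± 26.2 TPM and ALYREF at 74.2 ± 16.5 TPM (SD, n = 3).

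Some of these levels are uncertain because reads can be divided with another gene. Every 31-base word of the canonical DDX39B transcript also occurs in the read-through gene ATP6V1G2-DDX39B, and 99.4% of those of SARNP occur in a read-through gene without a symbol (ENSG00000257390). DDX39B lies in the major histocompatibility region, where reads placed on transcripts that were not matched here are missing from its level, and its canonical transcript DDX39B-202 held 0.898% of the gene's TPM. ZC3H11A shares its locus with ZBED6, and 99.5% of the words of its canonical transcript occur in ZBED6 and 43.4% in ZC3H11C. For CHTOP, DDX39A, NXF1 and POLDIP3 no such word occurred in another gene. These words were read from GENCODE models whose lengths differ from those in the files, most of all for ZC3H11A and DDX39B, so the sharing among the transcripts the authors used is not known.

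**Figure D1:**
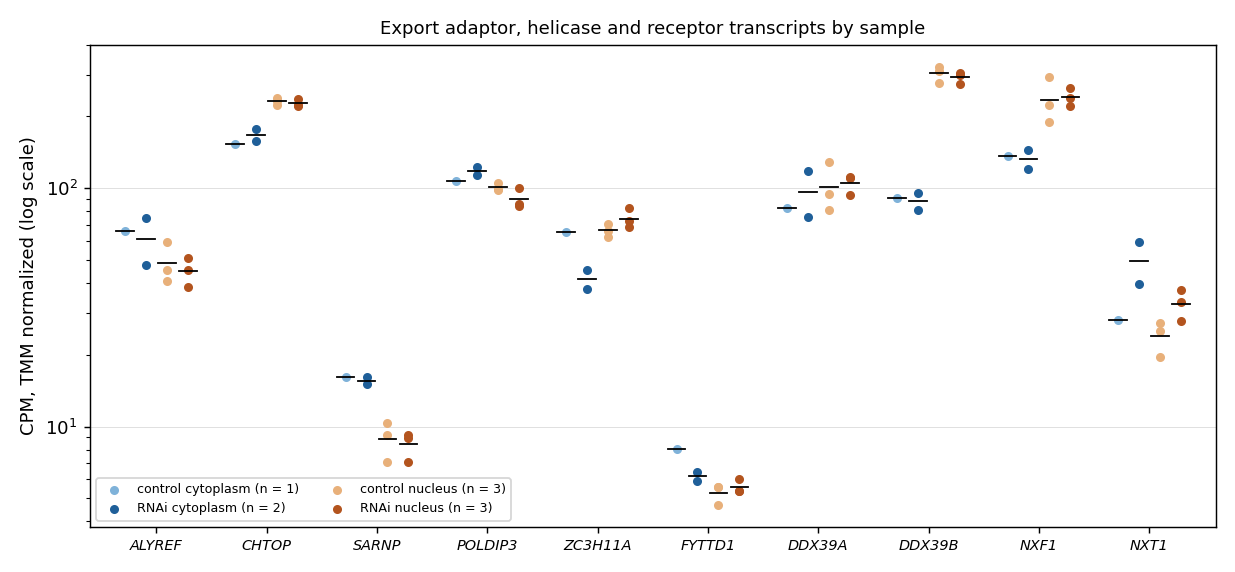
CPM of each gene (vertical axis, TMM normalized, log scale) in the 9 samples, coloured by group, with a black bar at each group's mean. CHTOP, DDX39B and NXF1 sit higher in all 6 nuclear samples than in the 3 cytoplasmic ones, SARNP sits lower, and ZC3H11A is lowest in the 2 RNAi cytoplasm samples.

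The first question was whether the nuclear/cytoplasmic ratio of the export genes differed after RNAi. Of the 10 genes 1 passed both thresholds (log2 fold change beyond 0.5 and an adjusted p under 0.1), against 18.2% of all genes tested. That gene was ZC3H11A, a zinc finger protein that associates with TREX. It was at 65.8 CPM in the control cytoplasm, and at 45.5 and 37.7 CPM in RNAi cytoplasm replicates 1 and 2. In the nucleus it was at 70.9, 62.4 and 66.4 CPM in control replicates 1 to 3, and at 82.4, 68.6 and 72.9 CPM in RNAi replicates 1 to 3. The RNAi cytoplasm samples were thus the lowest of the 9, and the nuclear groups overlapped.

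ZC3H11A fell in the cytoplasm to 63.3% of control (log2 fold change -0.66, SE 0.16, adjusted p = 0.0178), while in the nucleus its value was 112% of control (log2 fold change 0.17, SE 0.11, adjusted p = 0.415). The difference between the fractions was 0.82 on the log2 scale (SE 0.19, adjusted p = 0.0245, edgeR quasi-likelihood test). It passed the thresholds in each of 19 alternative fits, with log2 values between 0.74 and 1.36. One of them summed ZC3H11A with ZBED6, whose estimated counts were 109 in the control cytoplasm and 27.1 and 29.3 in the RNAi cytoplasm. The cytoplasmic comparison rests on 1 control library, and with a transcript length offset its adjusted p was 0.116.

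No single isoform carried the ZC3H11A result past the thresholds. Its isoforms with at least 20% of its TPM were ZC3H11A-202, the canonical transcript, and ZC3H11A-208. ZC3H11A-202 was at 4.83 TPM in the control cytoplasm, 2.23 and 2.66 TPM in the RNAi cytoplasm, 7.76, 9.61 and 8.29 TPM in the control nucleus and 6.54, 4.17 and 4.57 TPM in the RNAi nucleus. Its log2 fold changes after RNAi were -0.78 (SE 0.34, adjusted p = 0.348) in the cytoplasm and -0.80 (SE 0.23, adjusted p = 0.32) in the nucleus, lower values in both fractions. ZC3H11A-208 was at 5.04 TPM in the control cytoplasm, 3.42 and 1.19 TPM in the RNAi cytoplasm, 8.11, 2.14 and 6.34 TPM in the control nucleus and 10.9, 7.68 and 6.56 TPM in the RNAi nucleus. Its log2 value in the nucleus was 0.51 (adjusted p = 0.878) and its ratio change 1.52 (adjusted p = 0.60). ZC3H11A-203, called lower in the control nucleus than in the cytoplasm, had a log2 value of 1.46 in the nucleus after RNAi (adjusted p = 0.387) and a ratio change of 2.98 (SE 0.84, adjusted p = 0.20). The isoforms thus had values of opposite sign in the nucleus. The files hold no estimate of how uncertain the division of reads among isoforms is.

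The other 9 genes had ratio changes between -0.37 and 0.46 on the log2 scale, and none passed the thresholds. NXT1 stood at -0.37 (SE 0.32, adjusted p = 0.50) and FYTTD1 at 0.46 (SE 0.28, adjusted p = 0.305). POLDIP3, also known as SKAR, stood at -0.30 (SE 0.17, adjusted p = 0.282). ALYREF, DDX39B, SARNP and NXF1 lay between -0.03 and 0.08. The median over the 10 genes was -0.02, beside -0.05 over all genes tested.

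Within the nucleus, 0 of 10 genes passed the thresholds after RNAi, where 4.89% of all genes did. At an unadjusted p under 0.05 there was 1, NXT1, and DESeq2 and limma also called 0. NXT1 was at 19.6, 27.1 and 25.1 CPM in control nucleus replicates 1 to 3 and at 27.6, 33.3 and 37.3 CPM in the RNAi nucleus. It was the 1 gene of the 10 whose nuclear groups did not overlap, which 28.1% of all genes tested did as well. Its fold change was 1.37 (log2 0.45, SE 0.18, adjusted p = 0.189). The receptor NXF1 stayed at 1.03-fold (log2 0.04, SE 0.15), with its highest value, 294 CPM, in control nucleus replicate 2 against 189 and 223 CPM in replicates 1 and 3.

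Within the cytoplasm, 2 of 10 genes passed the thresholds, against 24.6% of all genes. ZC3H11A fell, as given above, and NXT1 rose. NXT1 was at 28.0 CPM in the control sample and at 39.6 and 59.6 CPM in RNAi replicates 1 and 2, both above the control. Its fold change was 1.76 (log2 0.82, SE 0.27, adjusted p = 0.0602). Without RNAi cytoplasm replicate 2 its log2 value was 0.45 (adjusted p = 0.298), and without control nucleus replicate 3 the adjusted p was 0.11. Scaled to library size alone, which moved the median of all genes from 0.01 to -0.24, NXT1 was at 0.55 (adjusted p = 0.259), or 0.78 above that median. FYTTD1 was at 8.09 CPM in the control cytoplasm and 6.46 and 5.90 CPM after RNAi (log2 -0.38, SE 0.23, adjusted p = 0.259). The adaptors ALYREF, CHTOP, SARNP and POLDIP3 and both helicases had log2 values between -0.11 and 0.23.

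**Figure D2:**
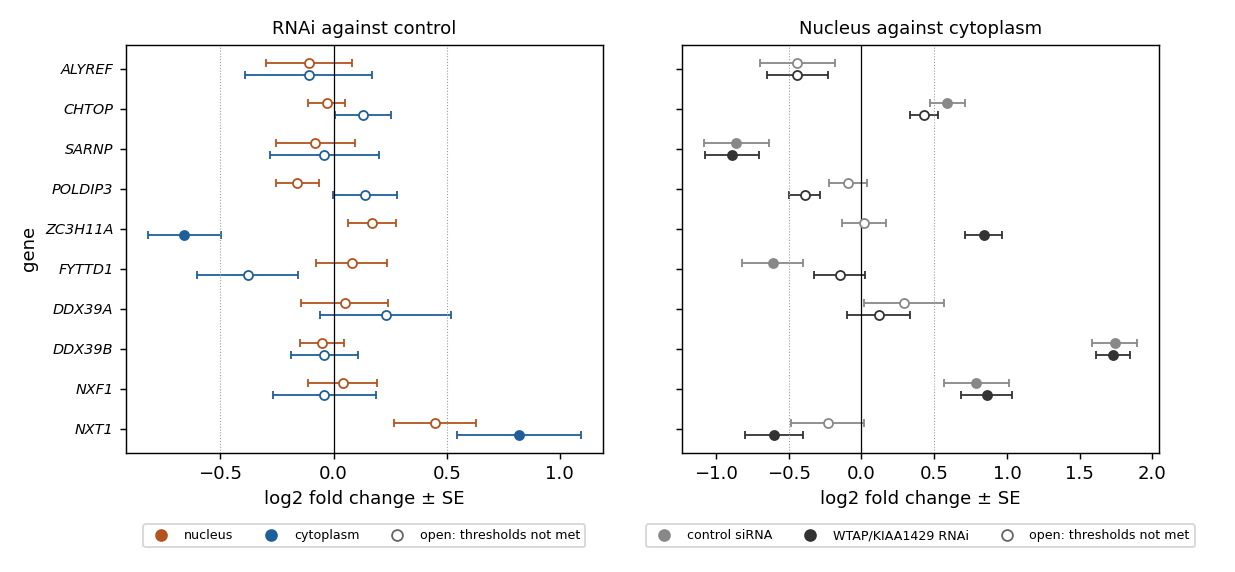
Log2 fold changes with SE for the 10 genes, RNAi against control in each fraction (left) and nucleus against cytoplasm under each siRNA (right). Filled points passed both thresholds, and dotted lines mark log2 values of -0.5 and 0.5. ZC3H11A (-0.66) and NXT1 (0.82) are the filled points on the left, and DDX39B stands farthest to the right at 1.74 and 1.73.

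The second question was where the export transcripts lay. The comparisons of nucleus with cytoplasm under control siRNA and under RNAi use separate samples, but each shares samples with the RNAi comparisons above. With control siRNA, 5 of 10 genes passed the thresholds, against 50.8% of all genes, with 3 higher in the nucleus (28.0% of all genes) and 2 lower (22.7%). After RNAi it was also 5 of 10, against 57.8%, again with 3 higher (32.9%) and 2 lower (24.9%). CPM per library sets no absolute amount, so more RNA in a fraction and a larger part of that fraction cannot be told apart.

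By matched counts DDX39B had the highest nuclear/cytoplasmic ratio of the 10. It was at 90.7 CPM in the control cytoplasm, 95.3 and 80.9 CPM in the RNAi cytoplasm, 311, 277 and 324 CPM in the control nucleus and 305, 298 and 275 CPM in the RNAi nucleus. All 6 nuclear values exceeded all 3 cytoplasmic ones by over 100 CPM. The ratio was 3.35-fold with control siRNA (log2 1.74, SE 0.16, adjusted p = 3.3e-05) and 3.32-fold after RNAi (log2 1.73, SE 0.12). Its paralogue DDX39A gave 1.23-fold (log2 0.29, SE 0.28, adjusted p = 0.399) and 1.08-fold. The DDX39B ratio lacks reads on unmatched transcripts of its locus, and how far these would move it was not tested. The read-through gene ATP6V1G2-DDX39B had 440 estimated counts in the control cytoplasm and 179 ± 52.5 (SD, n = 3) in the control nucleus. Over 19 alternatives, which include the sum with that gene, the DDX39B log2 value with control siRNA was 1.11 to 1.83.

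NXF1 was at 136 CPM in the control cytoplasm and at 121 and 145 CPM in the RNAi cytoplasm, against 189 to 294 CPM over the 6 nuclear samples. It was 1.72-fold higher in the nucleus with control siRNA (log2 0.79, SE 0.23, adjusted p = 0.0155) and 1.82-fold after RNAi (log2 0.86, SE 0.18, adjusted p = 0.00174). CHTOP, an adaptor that binds NXF1 together with ALYREF, was at 154 CPM in the control cytoplasm and 224, 239 and 233 CPM in the control nucleus. Its ratio was 1.51-fold with control siRNA (log2 0.59, SE 0.12, adjusted p = 0.00286) and 1.35-fold after RNAi, where the log2 value of 0.43 did not reach the threshold on size. Neither side of that threshold was stable: the control call was lost with no filter on low counts (0.48) and with the length offset (0.43), and the RNAi value passed in 5 alternatives (0.54 to 0.72).

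SARNP, known as CIP29, was lower in the nucleus. It was at 16.1 CPM in the control cytoplasm and 7.07, 10.4 and 9.20 CPM in the control nucleus, a log2 difference of -0.86 (SE 0.22, adjusted p = 0.00975), and the value after RNAi was -0.89 (SE 0.19, adjusted p = 0.00215). Summed with its read-through gene the control value was -0.50 and no longer passed the threshold on size. FYTTD1 was lower in the control nucleus (log2 -0.61, SE 0.21, adjusted p = 0.0324) from 53.5 to 133 estimated counts per sample, a call lost with the DESeq2 Wald test (adjusted p = 0.131) and with limma on log2(TPM + 0.1) (adjusted p = 0.114). After RNAi its value was -0.15 (adjusted p = 0.487). NXT1 was lower in the RNAi nucleus (log2 -0.60, SE 0.20, adjusted p = 0.023), which without RNAi cytoplasm replicate 2 came to -0.25 (adjusted p = 0.344). ZC3H11A was higher in the RNAi nucleus (log2 0.84, SE 0.13, adjusted p = 0.000268) and level with the cytoplasm under control siRNA (0.02, SE 0.15).

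Several of these genes have isoforms that keep an intron. An isoform was counted as intron-holding when 1 of its annotated exons spans a whole intron of the gene's canonical transcript, a class added after the values had been seen because the annotated biotype retained_intron leaves out NXF1-211 and both such CHTOP isoforms. CHTOP, DDX39A, DDX39B and NXF1 have 13 such transcripts, of which 11 passed the filter, and they cover 11 introns. The other 6 genes have none. The introns held by the most abundant of them are shown by their ends, because the splice sites are what distinguishes an excised from a kept intron. Each line gives 9 exon bases and 20 intron bases from the RNA strand of the GENCODE transcript on GRCh37, with the first and last intron dinucleotide in capitals.
NXF1 intron 10 of 20 (chr11:62566048-62567848, minus strand, 1801 bases), start: ctacatcagGTcagttgtagcctgtgtct
NXF1 intron 10, end: ttctgtcccgttcttgacAGcgccattcg
CHTOP intron 2 of 5 (chr1:153609130-153610770, plus strand, 1641 bases), start: aaatgagcgGTgaggcagccaacagcaac
CHTOP intron 2, end: cattttgttcgaccttgaAGctttactaa
CHTOP intron 4 of 5 (chr1:153614906-153615702, plus strand, 797 bases), start: cactccgagGTcagtgctgtgtaccctga
CHTOP intron 4, end: ttgtatgcctcctctctaAGgtcaaaacc
DDX39A intron 6 of 10 (chr19:14520686-14521027, minus strand, 342 bases), start: atgcaggatGTgagtagggcgagagtggc
DDX39A intron 6, end: ccacctcccttcccacacAGcccatggag
DDX39B intron 6 of 10 (chr6:31500689-31503143, minus strand, 2455 bases), start: atgcaagatGTaaatacccttctaccttc
DDX39B intron 6, end: acccccttcctcccccccAGccaatggag
DDX39B intron 1 of 10 (chr6:31508442-31509726, minus strand, 1285 bases), start: cctgtttagGTaagctttggccttcgcta
DDX39B intron 1, end: tttttttttcccccctccAGctcttctgt

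The kept intron was the longest of the gene for NXF1 intron 10, where the median intron has 181 bases, and for DDX39B intron 6, where the median has 1030 bases. CHTOP intron 4 was the shortest of that gene. The helicase paralogues both keep intron 6, and of the 9 exon bases before it 8 are identical in DDX39A and DDX39B, as are 8 of the 9 after it, while 7 of the first 20 and 12 of the last 20 intron bases match. GC content was 63.7% for DDX39A intron 6, 50.1% for DDX39B intron 6, 56.9% for NXF1 intron 10 and 41.7% for CHTOP intron 2.

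The more abundant intron-holding isoforms were higher in the nucleus. Of the 11 that passed the filter, 6 had at least 10 counts in every sample, and these 6 were all higher in the nucleus with control siRNA and after RNAi, against 35.0% and 38.9% of the 1073 such transcripts of all genes, a count added after the values had been seen. The other 5 had under 10 counts in each cytoplasmic sample and passed the filter through nuclear samples alone, so they are not counted. Over all 51 isoforms of the 10 genes, 15 were higher in the nucleus with control siRNA (21.0% of all transcripts) and 4 were lower (11.0%), and after RNAi 20 were higher (28.6%) and 6 were lower (15.0%), counts that include isoforms which passed only through the fraction where they are high. The intron-holding share within the gene was tested too, by edgeR's diffSpliceDGE on counts summed per class. The log2 values given with it come from the same edgeR fit, as the class minus the gene's other isoforms, so they exceed the change in the share itself. Only the p-values are of diffSpliceDGE, which sets the class against the whole gene. For DDX39B, 1.54 with control siRNA goes with a share of counts of 54.0% in the cytoplasm and a mean of 76.8% in the nucleus. All 4 genes had a larger intron-holding share in the nucleus under either siRNA, where 59.2% of 2779 genes did with control siRNA and 69.6% after RNAi. For DDX39B with control siRNA (log2 1.54, adjusted p = 0.057) this did not hold without control nucleus replicate 3 (1.37, adjusted p = 0.105). By the retained_intron biotype 2 of 3 genes tested did, DDX39A and DDX39B, against 56.2% and 66.6% of 4347 genes. The retained_intron isoforms of ALYREF and SARNP were at 0 in all 3 cytoplasmic samples, reached at most 1.91% and 8.84% of the gene's TPM in nuclear samples, and were not tested.

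NXF1-211 keeps intron 10, the intron with the constitutive transport element, and is annotated as protein coding. It was at 3.69 TPM in the control cytoplasm, 4.36 and 2.57 TPM in the RNAi cytoplasm, 15.8, 20.4 and 15.9 TPM in the control nucleus and 18.4, 26.0 and 21.7 TPM in the RNAi nucleus. The ranges of the fractions were far apart, and the transcript was higher in the nucleus with control siRNA (log2 2.14, SE 0.27, adjusted p = 0.00361, edgeR) and after RNAi (log2 2.31, SE 0.21, adjusted p = 0.00045). NXF1-201, the fully spliced canonical transcript, was at 42.1 TPM in the control cytoplasm and 30.3, 56.5 and 40.4 TPM in the control nucleus, and did not pass the thresholds between fractions. The share of NXF1 counts on NXF1-211 was 11.4% in the control cytoplasm, 17.1% and 9.79% in the RNAi cytoplasm, and 25.2% to 37.3% in the nuclear samples.

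NXF1 has shorter isoforms as well. NXF1-212, of biotype retained_intron but 390 bases long and holding no whole canonical intron, took 22.1% of the gene's TPM and was at 17.7 to 26.9 TPM in the cytoplasm and 22.9 to 70.0 TPM in the nucleus. NXF1-206, a coding fragment of 619 bases, reached 117 TPM in control nucleus replicate 2, against 35.9 and 62.8 TPM in replicates 1 and 3. By the biotype class the NXF1 share did not differ between fractions (log2 0.08 with control siRNA, adjusted p = 0.899), whereas by whole introns it did (1.74, adjusted p = 0.000621).

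CHTOP-206 keeps intron 2. It was at 5.46 TPM in the control cytoplasm, 4.79 and 3.56 TPM in the RNAi cytoplasm, 34.8, 34.6 and 33.0 TPM in the control nucleus and 33.6, 33.9 and 30.9 TPM in the RNAi nucleus. CHTOP-201 keeps intron 4 and was at 1.62 TPM in the control cytoplasm, 1.46 and 1.54 TPM in the RNAi cytoplasm, 16.3 ± 1.78 TPM (SD, n = 3) in the control nucleus and 11.9, 15.3 and 12.9 TPM in the RNAi nucleus. They were 5.87-fold (log2 2.55, SE 0.22, adjusted p = 0.00133) and 9.30-fold (log2 3.22, SE 0.21, adjusted p = 0.000958) higher in the nucleus. The remaining CHTOP isoforms together were at 71.0 TPM in the control cytoplasm and 48.2, 78.7 and 62.7 TPM in the control nucleus. By these estimates the intron-holding isoforms were higher in every control nuclear sample, while the others lay on both sides of the 1 control cytoplasm library. The summed level of the others was not tested. After RNAi the spliced canonical CHTOP-204 was lower in the nucleus than in the cytoplasm (log2 -0.71, SE 0.12, adjusted p = 0.0041).

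**Figure D3:**
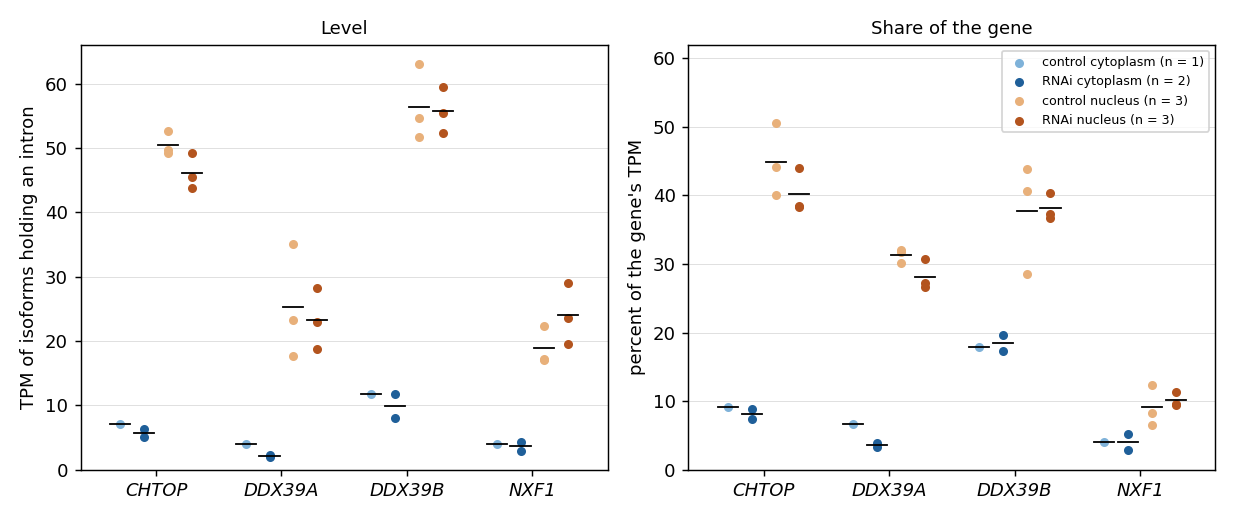
Isoforms holding a whole canonical intron of CHTOP, DDX39A, DDX39B and NXF1, as summed TPM (left) and as a percentage of the gene's TPM (right), in the 9 samples with a black bar at each group's mean. In each gene every nuclear sample lies above every cytoplasmic one, and the shares of the control and RNAi nuclear samples overlap.

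Isoforms of biotype retained_intron took 18.5% to 23.6% of DDX39B TPM in cytoplasmic and 63.9% to 75.6% in nuclear samples, mainly DDX39B-215, DDX39B-219 and DDX39B-217. DDX39B-215 keeps intron 6 and was at 11.4 TPM in the control cytoplasm, 11.5 and 7.75 TPM in the RNAi cytoplasm, 46.6, 42.9 and 53.8 TPM in the control nucleus and 44.3, 45.8 and 40.4 TPM in the RNAi nucleus. DDX39B-219 keeps introns 1 and 6 and was at 0.346 TPM in the control cytoplasm and 8.05, 8.76 and 9.24 TPM in the control nucleus, which was 23.8-fold (log2 4.57, SE 0.28, adjusted p = 0.000958). DDX39B-217 is of biotype retained_intron and 974 bases long but holds no whole canonical intron. It was at 0.608 TPM in the control cytoplasm and 30.5, 75.1 and 42.5 TPM in the control nucleus. It had 8.26 estimated counts in the control cytoplasm and 10.4 and 2.81 in the RNAi cytoplasm. The nuclear samples, where it is high, thus carried it past the filter, and no test of it is given. Among isoforms annotated as protein coding, DDX39B-206 held the most TPM (24.8%). It is 928 bases long, against 2133 for the canonical DDX39B-202, so its level is not that of the full-length mRNA. It was at 37.9 TPM in the control cytoplasm and 36.6 and 26.7 TPM in the RNAi cytoplasm. In the nucleus it was at 41.2, 35.5 and 25.1 TPM in control and 20.1, 24.1 and 18.5 TPM in RNAi samples (adjusted p = 0.341, edgeR). Shares within DDX39B carry the limit given above, that reads on unmatched transcripts of this locus are missing.

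The most abundant intron-holding isoform of DDX39A was DDX39A-209, with introns 6 and 8. It was at 2.80 TPM in the control cytoplasm, 1.33 and 1.69 TPM in the RNAi cytoplasm, 11.7, 24.6 and 13.6 TPM in the control nucleus and 12.7, 20.5 and 13.7 TPM in the RNAi nucleus. The level was 5.39-fold higher in the nucleus with control siRNA (log2 2.43, SE 0.44, adjusted p = 0.0104). The canonical DDX39A-201 was at 51.9 TPM in the control cytoplasm and 32.6, 59.0 and 40.0 TPM in the control nucleus. DDX39A-202, annotated for nonsense-mediated decay, went the opposite way: it had 65.8 estimated counts in the control cytoplasm, 33.8 and 82.4 in the RNAi cytoplasm and 0 in all 6 nuclear samples. It passed the filter through cytoplasmic samples alone, where it is high, so no test of it is given. Against a floor of 3 counts over the 3 control nuclear samples, its level in the 1 control cytoplasm library came to 54.8-fold. That value takes the 65.8 counts as exact.

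The third question was whether RNAi changed these shares. By the biotype class, 0 of 3 genes tested (DDX39A, DDX39B and NXF1) passed an adjusted p of 0.1 for the ratio between fractions, where 4.83% of 4347 genes did, 0 of 3 in the nucleus, where 0.391% did, and 0 of 3 in the cytoplasm, where 5.64% did. At an unadjusted p under 0.05 there were 0 for the ratio, 0 in the nucleus and 1 in the cytoplasm (DDX39A, log2 -0.98, adjusted p = 0.23), while 674, 303 and 710 genes reached it. By whole introns 0 of 4 passed for the ratio, in the nucleus and in the cytoplasm, against 2.59%, 0.144% and 4.97% of genes. In the cytoplasm the ratio of intron-holding to other DDX39A isoforms was at 51.1% of control (log2 -0.97 from the edgeR fit, with adjusted p = 0.197 from diffSpliceDGE). The share of DDX39A counts itself was 7.77% in the control sample and 4.4% and 3.96% in RNAi replicates 1 and 2.

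The nuclear shares of TPM on retained_intron isoforms were 32.1%, 32.3% and 33.0% in control and 28.0%, 32.4% and 27.2% in RNAi samples for DDX39A, a difference of -3.30 percentage points (exact permutation test, two-sided, p = 0.3). For DDX39B they were 63.9%, 70.7% and 73.9% against 75.6%, 72.7% and 73.1% (p = 0.3, exact permutation test), and for NXF1 20.9%, 20.2% and 23.3% against 31.4%, 21.9% and 32.5% (p = 0.2, exact permutation test). With 3 samples against 3 this test cannot go below 0.1.

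Taken intron by intron, the nuclear groups did not overlap for 4 of 11 introns by share of TPM, where 14.8% of the 4353 intron-holding transcripts of all genes did not overlap. The units differ, since that percentage counts single transcripts while an intron here pools up to 4 of them. Isoforms with CHTOP intron 4 took 14.8%, 13.7% and 14.7% of CHTOP TPM in control and 11.5%, 12.0% and 11.3% in RNAi nuclear samples. Isoforms with DDX39B intron 1 took 5.98%, 4.84% and 6.44% against 8.10%, 8.59% and 8.39%. DDX39A intron 4 stood at 3.27%, 2.18% and 3.32% against 0.263%, 1.07% and 1.21%, and DDX39A intron 2 at 3.30%, 3.26% and 3.56% against 3.91%, 4.55% and 4.09%. DDX39A-212, the only isoform with DDX39A intron 4, had 23.7, 24.7 and 21.9 estimated counts in control and 2.18, 7.7 and 11.1 in RNAi nuclear samples. It passed the filter mainly through the control nucleus, where it is high, so its non-overlap is no support for a change. Both directions occurred, and these 4 each had p = 0.1, the smallest the exact permutation test allows, and 0.275 adjusted over the 11 introns. NXF1 intron 10 was at 8.40% ± 2.83 in control and 9.27% ± 0.738 in RNAi nuclear samples (SD, n = 3). By share of counts NXF1 intron 20 did not overlap either, at 0.353% to 0.427% in control and 0.445% to 0.611% in RNAi nuclear samples.

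**Figure D4:**
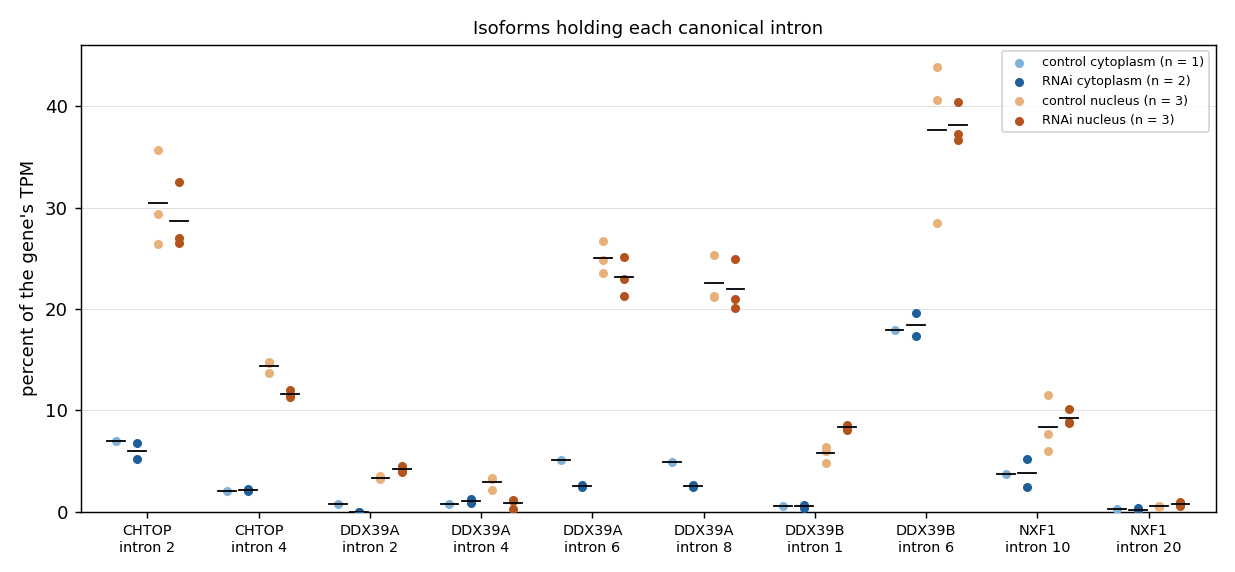
Share of the gene's TPM on isoforms holding each of 10 canonical introns, in the 9 samples, with a black bar at each group's mean (NXF1 intron 2, below 0.3% in every sample, is left out). CHTOP intron 4 and DDX39A intron 4 are lower, and DDX39B intron 1 and DDX39A intron 2 higher, in the 3 RNAi nuclear samples than in the 3 control ones.

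Among single transcripts, 1 of the 51 tested passed the thresholds for the ratio between fractions, against 1.03% of all 44726 transcripts. This was DDX39A-204, which keeps intron 2. It had 7.60 estimated counts in the control cytoplasm and 0 in both RNAi cytoplasm samples, against 28.3, 43.6 and 27.7 in the control nucleus and 38.0, 38.6 and 44.3 in the RNAi nucleus. It was also the 1 called of the 51 in the cytoplasm, where 2.84% of transcripts passed. With under 10 counts in each cytoplasmic sample, it passed the filter through nuclear samples alone, where it is high. Its p-values are therefore not given, and neither call is read as a change after RNAi. In the cytoplasm the control level came to 4.03-fold a floor of 3 counts over both RNAi samples. That value takes the 7.60 counts of the 1 control library as exact, so it is not a lower limit. In the nucleus 0 of 51 transcripts passed, as did 0 of all 44726, although 10 of the 51 and 4416 of all had an unadjusted p under 0.05.

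The rest of the export pathway was described from 5 lists of genes. Of the 6 THO subunits, 2 had a higher nuclear/cytoplasmic ratio after RNAi and 0 a lower one, with a median log2 change of 0.31. THOC2, a scaffold subunit, was at 34.9 CPM in the control cytoplasm and at 7.79 and 8.64 CPM in the RNAi cytoplasm, a ratio change of 2.84 (SE 0.20, adjusted p = 0.000422), and THOC1 changed by 2.36 (SE 0.44, adjusted p = 0.00992). Of the 6 genes of TREX-2, which links transcription to the pore, 1 was called, ENY2, at 0.88 (SE 0.24, adjusted p = 0.0403).

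Of 5 exon junction complex genes 1 was called, EIF4A3, the RNA helicase of that complex, at 1.19 (SE 0.29, adjusted p = 0.0268). Of 10 genes for cap binding and release at the pore 2 were higher and 1 was lower. The cap-binding NCBP3 and NCBP1 stood at 0.80 (SE 0.28, adjusted p = 0.0888) and 0.57 (SE 0.17, adjusted p = 0.0492). DDX19B, the helicase that releases mRNA at the cytoplasmic face, stood at -0.66 (SE 0.18, adjusted p = 0.038). Of 12 other NXF1 adaptors and relatives 7 were tested and 0 were called. Over all genes 10.4% were called higher and 7.87% lower in this comparison, with a median of -0.05.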

How the data were processed

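RNA of 9 samples of nuclear and cytoplasmic HEK293 fractions was measured by mRNA sequencing. Per the methods, the authors trimmed reads with cutadapt and ran salmon (version not given in the sources used here) against Ensembl version 75 transcripts of hg19. For each transcript they deposited an estimated count, not normalized between samples, a TPM value, scaled by effective length to the same total in every sample, and lengths in nucleotides. Salmon divides shared reads among isoforms, so isoform values carry an error that is not in the tests.

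Transcripts were matched to GENCODE version 44 on GRCh37 (183122 of 215170, 85.1%, with 83.07% to 88.31% of counts). Counts were summed per gene, rounded and fitted with edgeR 4.0.16 in R 4.3.3 (TMM, 4 groups, 5 residual degrees of freedom, quasi-likelihood test, at least 10 counts in at least 3 samples), giving Benjamini-Hochberg adjusted p over all features. Thresholds and the ratio contrast follow the study's methods. The SE is the log2 fold change divided by the square root of F. Depth of 11627403 to 19036141 counts makes 3 counts equal to 0.19 to 0.303 CPM, and floors cover counting error on the side at 0 only. No samples were identical, and chi-square per degree of freedom between replicates was 5.66 to 66.2. The code was tested on simulated data.

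The members and lists were chosen with earlier results of these data known. Named were all 10 genes, up to 2 called genes per direction and list, and isoforms that keep an intron, hold 20% of TPM or were called. Alternatives were DESeq2 1.42.0 size factors and Wald test, library size, 2 filters, a transcript length offset, a replicate block, limma 3.58.1 on log2(TPM + 1) and log2(TPM + 0.1), an FDR of 0.05, single samples left out, and, added after seeing the data, the whole-intron class and sums with overlapping genes. Promoters and proteins were not used here, and 1 marker gene is not reported here.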

Additional observations from a re-analysis of the deposited data

Results flagged for a closer look

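The change after RNAi differed between nucleus and cytoplasm, by the interaction term of the edgeR fit, for the following. Positive values mean a higher nuclear/cytoplasmic log2 ratio after RNAi, and each rests on 1 control cytoplasm library. ZC3H11A stood at 0.82, with a lower level in the RNAi cytoplasm. THOC2 stood at 2.84 and THOC1 at 2.36. EIF4A3 was at 1.19, ENY2 at 0.88, NCBP3 at 0.80 and NCBP1 at 0.57. DDX19B was at -0.66, in the opposite direction. WTAP, a target of the siRNAs, was at 0.89, since its level fell further in the cytoplasm than in the nucleus. DDX39A-204 was flagged as well, but it passed the filter through nuclear samples alone, so its call is not read as a difference. It was fitted at 6.07, a value that depends on the prior count because both RNAi cytoplasm samples are at 0.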

How the results depend on the processing

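Over the 10 genes and 5 comparisons, 920 of the alternative values kept their side of the thresholds, 18 lost it and 12 gained it, and none that was called turned its direction. For the ratio, the replicate block called 2 genes, with NXT1 at -0.56 (adjusted p = 0.0625), and the others 1. In the cytoplasm 1 gene was called, not 2, with library size alone, the length offset, both limma fits and an FDR of 0.05, and 1 to 2 with single samples left out. The main fit did not take replicate numbers as pairs. Nuclear samples of the same number correlated at 0.185, 0.11 and 0.0424 between the siRNAs, and those of other numbers at -0.172 to 0.0563. An effect shared by replicates is thus not excluded, and nucleus and cytoplasm of the same number were not compared. For the ratio over all genes, the replicate block called 2121 higher and 1917 lower, against 1680 and 1273 in the main fit. Library size alone moved the share of higher calls for the ratio from 56.9% to 93.2% and the median of all genes from -0.05 to 0.23, against which ZC3H11A stood 0.87 higher in both.

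For transcripts, the ratio call was 0 with at least 10 counts in every sample, with the replicate block and at an FDR of 0.05, and 0 to 2 without single samples. The cytoplasm call was 0 under the same 3 settings and 0 to 2 without single samples. Nucleus against cytoplasm, the stricter filter called 11 with control siRNA and 15 after RNAi. Counting nonsense-mediated decay with retained-intron isoforms called 1 gene for the ratio and 1 in the nucleus, ZC3H11A both times, through ZC3H11A-212, which had under 1 count in all 3 control nuclear samples. The whole-intron class called 4 genes in both comparisons of nucleus with cytoplasm, of which DDX39B with control siRNA was lost without control nucleus replicate 3. Depth limits FYTTD1, SARNP and the rarer intron isoforms, and the single control cytoplasm library could not be left out.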
